A study of Mus musculus with 2 samples.

Results

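Intermediate filament genes of progenitors and young neurons were described in RNA from the midbrain of mouse embryos at day 12.5. The 10 genes were taken by name, through their gene identifiers in GENCODE M21, out of 43346 measured genes. They are Vim, Nes, Ina, Nefl, Nefm, Nefh, Prph, Lmna, Lmnb1 and Lmnb2, and the choosing rule uses names and no threshold on a value. All 10 had a row at gene and transcript level in both libraries, and 9 reached a mean of 1 TPM (transcript abundance scaled for length and library).

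The tissue came from healthy embryos of strain B6NCrl, both sexes mixed, with no treatment or mutation named in the labels. Replicate 1 was a pool of 120 embryos and replicate 2 a separate pool of 88 embryos, so the 2 libraries form 1 group with no contrast between conditions. Starting material was 10 ng of RNA above 200 nucleotides with spike-in RNA added, and each library was labelled total RNA although a manual for a SMARTer Ultra Low kit was linked. Each pool mixes all cells of the dissected midbrain, so fewer cells of a type and less RNA per cell cannot be told apart.

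Intermediate filaments are rope-like polymers of coiled-coil proteins, and cells exchange their subunits as they mature. Dividing neuroepithelial cells and radial glia carry vimentin and nestin, young neurons take up alpha-internexin and the light and medium neurofilament subunits, and the heavy subunit is known to come later. The lamins are the nuclear branch of the family: B-type lamins line the nucleus of nearly every cell, and the A-type lamins are known for rising as tissues mature and stiffen.

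The progenitor filament Vim was the most abundant of the 10 genes, and a full order of levels could be read in all but 1 neighbouring pair. By mean TPM the order was Vim, Ina, Lmnb1, Nes, Nefl, Nefm, Lmnb2, Lmna, Prph and Nefh. In 8 of the 9 neighbouring pairs the lower library of the higher gene lay above the higher library of the lower gene. The exception was Nes and Nefl, whose values crossed in replicate 2, at 148.1 TPM for Nes and 148.9 TPM for Nefl. TPM is scaled for transcript length, but a level still depends on how reads were divided among the transcripts of a gene. Over protein-coding transcripts alone the mean of Vim was 619.0 TPM, and Nefl (138.0 TPM) lay above Nes (133.1 TPM).

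**Figure D1:**
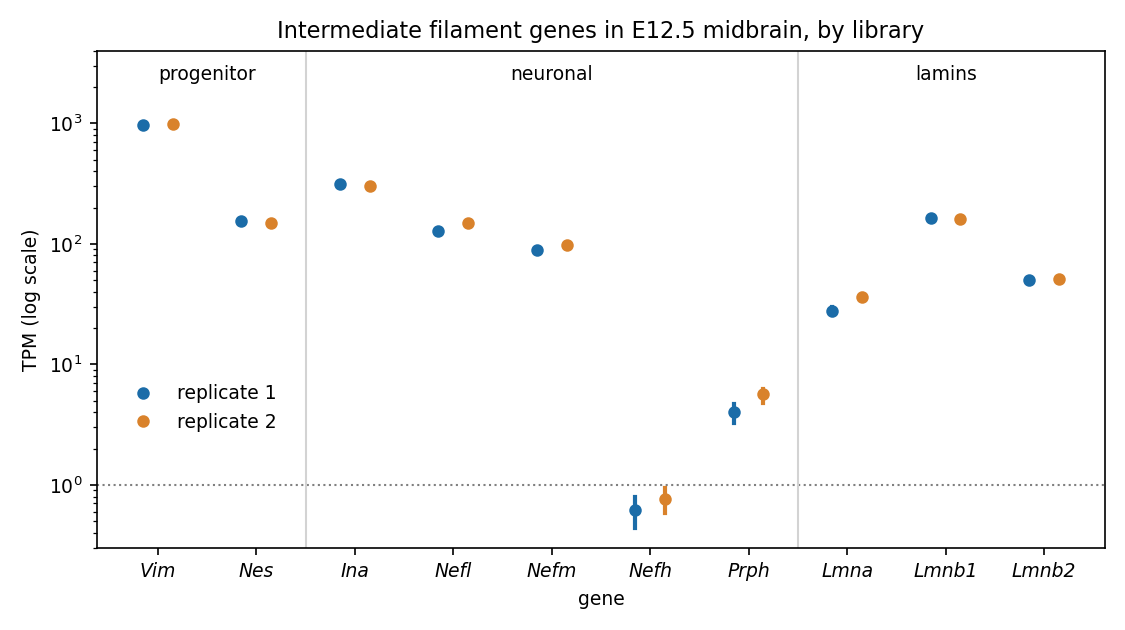
Level of each gene in TPM on a log axis, with replicate 1 at the left (blue) and replicate 2 at the right (orange) of each pair. Vertical bars are the deposited intervals of gene TPM, visible only where wider than the point. The dotted line marks 1 TPM, and Nefh lies below it in both libraries while Vim lies near 1000 TPM.

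Between the pools the measured ratios of the 10 genes stayed under 1.5-fold and were farthest from 1 for Prph and Lmna, which were lower in replicate 1. A two-sided exact binomial test on rounded counts compared the libraries gene by gene, adjusted over all genes with at least 10 counts summed. Calls needed 3 things at once: an adjusted p below 0.05, a difference of 1.5-fold or more, and a mean of 1 TPM or more. Of the 9 members at that level 0 were called, where the rule called 3.55% of all 15199 genes tested. By the adjusted p alone, 6 of the 9 passed, against 26.4% of all genes. Of these, Nes and Ina were higher in replicate 1, a direction in which 14.1% of all genes passed. Nefl, Nefm, Prph and Lmna were lower, where 12.3% passed. The unadjusted p of 6 members was under 0.05, against 36.3% of all genes.

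This test sees counting error and not the variation between pools, so deep genes pass at small folds. The edgeR exact negative binomial test used 1 common dispersion, estimated from the same 2 libraries that it compared. The differences under test thus also set that dispersion, and no independent replicate measured the variation between pools. The edgeR test called 0 members by the same rule, where it called 1.32% of all genes. It gave 0 members an unadjusted p under 0.05, where 5.74% of all genes had one. Over 7181 genes with a mean count of at least 1000, the SD of the log2 ratio was 0.14. The log2 ratios of Vim, Nes, Ina, Nefm, Lmnb1 and Lmnb2 were smaller than that SD, and those of Nefl and Lmna were larger. Those of Nefh and Prph were larger too, but their counts lie far below that depth. Nefh had 43 and 67 counts and Prph 121 and 212, so this SD is no measure of their spread. The median log2 ratio was -0.01 over the 9 members and 0.00 over all genes tested.

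**Figure D2:**
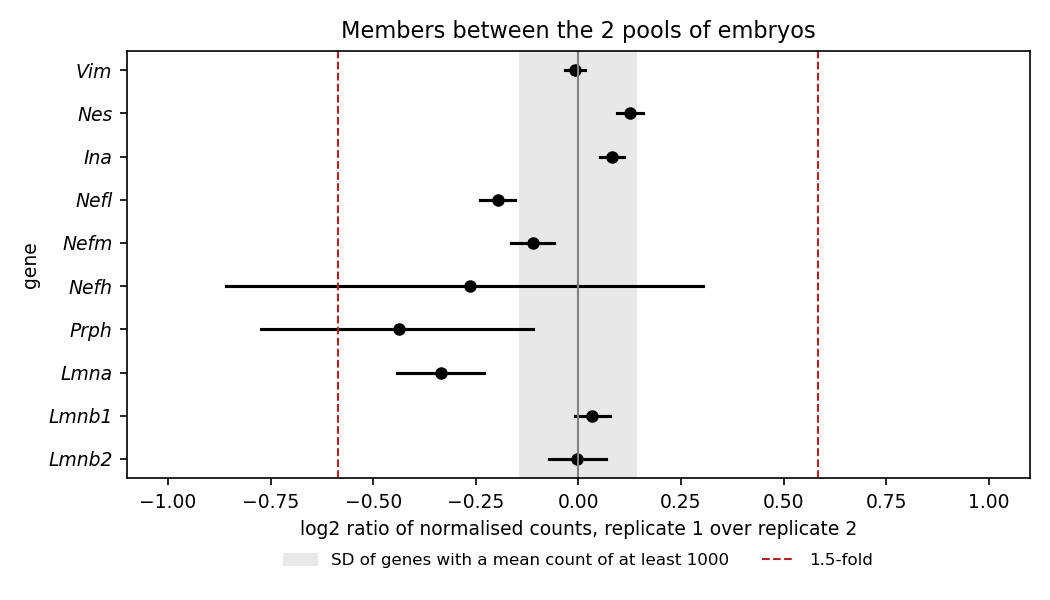
Log2 ratio of TMM-scaled counts, replicate 1 over replicate 2, for each gene, with bars for the 95% exact binomial interval. The grey band is 1 SD of the ratio over genes with a mean count of at least 1000 and the dashed lines mark 1.5-fold. The band does not apply to Nefh and Prph, whose counts are below that depth. All 10 points lie inside the dashed lines, the intervals of Nes and Ina lie above 0, and those of Nefl, Nefm, Prph and Lmna lie below it.

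Vim encodes vimentin, the filament that radial glia share with mesenchyme and endothelium (chr2:13573927-13582826 in mm10, plus strand). It had 965.3 TPM in replicate 1 and 994.9 in replicate 2, from 23158 estimated counts in replicate 1 and 30077 in replicate 2. Its mean of 980.1 ± 20.96 TPM (SD, n = 2) put it at rank 61 of 21461 nuclear protein-coding genes. Its log2 ratio of replicate 1 over replicate 2 was -0.01, with an adjusted p of 0.738 in the exact binomial test and a 95% interval of the ratio from 0.978 to 1.01.

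The level of Vim depended on a short transcript without a coding sequence. Vim-203, a retained-intron transcript of 535 nucleotides, took 35.4% of the gene's TPM in replicate 1 and 36.5% in replicate 2, but 11.4% of its counts in replicate 1 and 11.8% in replicate 2. The coding transcripts Vim-206 and Vim-201 held 34.4% and 29.1% of TPM in replicate 1, and 32.1% and 30.6% in replicate 2. Summed over protein-coding transcripts alone, Vim was at 614.0 TPM in replicate 1 and 624.0 in replicate 2, which still lay above the next gene, Ina. Estimates of this kind divide reads among overlapping transcripts and scale each by its length, and whether Vim-203 exists as a separate RNA was not tested.

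Nes encodes nestin, a long filament protein that does not polymerise alone and pairs with vimentin (chr3:87971078-87980451, plus strand). Its top transcript codes for 1864 codons, the longest of the 10 genes, against 427 for Vim-206. Nes was at 154.8 TPM in replicate 1 and 148.1 in replicate 2, a mean of 151.5 ± 4.74 TPM (SD, n = 2) and rank 986. By TMM-scaled counts the ratio of replicate 1 over replicate 2 was 1.09, with a binomial adjusted p of 2.03e-13 (exact test) and an unadjusted edgeR p of 0.514.

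By gene TPM, with retained-intron transcripts included, there were 6.23 Vim transcripts for each Nes transcript in replicate 1 and 6.72 in replicate 2. The gap was smaller over protein-coding transcripts alone. There Vim was at 614.0 TPM and Nes at 137.8 in replicate 1, and at 624.0 and 128.3 in replicate 2. Nes-201 held 74.2% of Nes TPM in replicate 1 and 70.8% in replicate 2. The second coding form, Nes-203, held 14.8% in replicate 1 and 15.8% in replicate 2. The retained-intron transcript Nes-202 held 11.0% in replicate 1 and 13.4% in replicate 2. The deposited intervals of these 3 transcripts overlapped between the libraries.

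The neuronal filaments were led by Ina, and the subunits that young neurons acquire early stood far above the heavy subunit. Ina encodes alpha-internexin, an early filament of central neurons (chr19:47014698-47025327, plus strand). It was at 313.3 TPM in replicate 1 and 302.6 in replicate 2, a mean of 308.0 ± 7.59 TPM (SD, n = 2) and rank 405. The ratio of replicate 1 over replicate 2 was 1.06, with a binomial adjusted p of 7.82e-07 (exact test) and an unadjusted edgeR p of 0.673.

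Nefl encodes the light neurofilament subunit, the backbone on which the other subunits assemble (chr14:68083863-68089095, plus strand). It was at 127.2 TPM in replicate 1 and 148.9 in replicate 2, a mean of 138.0 ± 15.3 TPM (SD, n = 2). Its ratio of replicate 1 over replicate 2 was 0.873, with an adjusted p of 8.44e-18 in the exact binomial test and an unadjusted edgeR p of 0.310. The deposited intervals of the 2 libraries stood apart, and replicate 2 was the higher one.

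Nefm encodes the medium subunit, which adds a phosphorylated tail to the filament. It lies on the minus strand of the same region as Nefl (chr14:68082590-68124846). It was at 88.3 TPM in replicate 1 and 97.4 in replicate 2, a mean of 92.8 ± 6.41 TPM (SD, n = 2). Its ratio was 0.926, with an adjusted p of 0.000336 in the exact binomial test and an unadjusted edgeR p of 0.568, and again replicate 2 was higher with no overlap of the intervals.

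The annotated span of Nefm runs over Nefl on the opposite strand. The overlap rests on Nefm-202, which shares 1108 exon bases with Nefl and held 1.05% of Nefm TPM in replicate 1 and 1.20% in replicate 2. Nefm-201, the form with nearly all of the signal, shares 0 exon bases with Nefl and lies 30.2 kb beyond its end. Whether the counting used strand is not given in the sources used here. The posterior SD of the count was equal for the 2 genes, at 7.70 counts in replicate 1 and 9.94 counts in replicate 2, which is small beside counts of 5066 or more.

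Nefh encodes the heavy subunit, whose long tail spaces the filaments of large axons (chr11:4938754-4948064, minus strand). It was at 0.62 TPM in replicate 1 and 0.77 in replicate 2, from 43 counts in replicate 1 and 67 in replicate 2, and ranked 13635. The adjusted p of the exact binomial test was 0.609, and the 95% interval of the ratio of replicate 1 over replicate 2 ran from 0.552 to 1.23. A difference between the pools smaller than that could not be detected at this depth.

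The neuronal filament set was uneven in both pools. Ina made up 59.2% of the summed TPM of Ina, Nefl, Nefm and Nefh in replicate 1 and 55.1% in replicate 2. Nefl made up 24.0%, Nefm 16.7% and Nefh 0.117% in replicate 1. In replicate 2 Nefl made up 27.1%, Nefm 17.7% and Nefh 0.140%. There were 205.1 Nefl transcripts for each Nefh transcript in replicate 1 and 193.4 in replicate 2.

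On the log2(TPM + 1) scale, Nefl lay 6.31 above Nefh in replicate 1 and 6.40 in replicate 2. The mean of Vim and Nes lay 2.98 above the mean of Ina, Nefl, Nefm and Nefh in replicate 1 and 2.86 in replicate 2. Nefh, near the floor, carried much of that gap: without Nefh the difference was 1.34 in replicate 1 and 1.23 in replicate 2, an alternative added after seeing the data. Summed TPM was 1120.1 for Vim and Nes in replicate 1 and 1143.1 in replicate 2. For the 4 neuronal genes it was 529.4 in replicate 1 and 549.6 in replicate 2. The sum of the progenitor pair was the larger in both pools. With Vim-203 included, Vim alone supplied 58.4% of the TPM of the 7 cytoplasmic genes in replicate 1 and 58.6% in replicate 2.

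Prph encodes peripherin, the filament of peripheral sensory, autonomic and cranial motor neurons (chr15:99055174-99058978, plus strand). It was at 4.02 TPM in replicate 1 and 5.62 in replicate 2, from 121 counts in replicate 1 and 212 in replicate 2, a mean of 4.82 ± 1.13 TPM (SD, n = 2). The deposited intervals, 3.26 to 4.65 TPM in replicate 1 and 4.79 to 6.28 in replicate 2, did not overlap, and replicate 1 was the lower one. Its ratio of replicate 1 over replicate 2 was 0.739, with an adjusted p of 0.0374 in the exact binomial test and an unadjusted edgeR p of 0.0870.

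Prph was scarce beside Ina, Nefl and Nefm and lay above Nefh, with 77.9 Ina transcripts for each Prph transcript in replicate 1 and 53.8 in replicate 2. Prph-201 held 69.7% of Prph TPM in replicate 1 and 86.4% in replicate 2, and Prph-202 held the remaining 30.3% in replicate 1 and 13.6% in replicate 2. The TPM intervals of both transcripts overlapped between the libraries. These are intervals of level and not of share, and a difference in shares was not tested. The shares rest on 121 counts in replicate 1 and 212 in replicate 2.

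Markers of the neurons that use peripherin were low and did not all lean one way. The summed TPM of 6 sensory ganglion markers was 35.1 in replicate 1 and 38.8 in replicate 2, with Scn10a at 0 in both. Of the 5 tested, 4 were lower in replicate 1, with a median log2 ratio of -0.36. The sum of 6 cranial motor neuron markers was 33.6 TPM in replicate 1 and 21.2 in replicate 2. Chat and Phox2a were under 1 TPM in both. Isl1, a transcription factor of motor and other neurons, was called higher, at 31.3 TPM in replicate 1 against 17.3 TPM in replicate 2, where 1.41% of all genes were called. Slc5a7, the choline transporter, was called lower, at 0.96 TPM in replicate 1 against 1.53 TPM in replicate 2, a direction in which 2.14% of all genes were called. The edgeR test gave adjusted p-values of 0.00948 for Isl1 and 0.441 for Slc5a7. The part of these cells in the level of Prph was not tested.

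The promoters of Vim and Prph share the letters TATAAA, the core of a TATA box, although the levels of the genes stand far apart. Both are shown from RefSeq on GRCm38.p6, as the 60 bases just before the annotated start, 5′ to 3′, with capitals on the letters TATAAA. The Vim window is chr2:13574251-13574310 and the Prph window chr15:99055114-99055173, both on the plus strand. The RefSeq start of Vim is not that of its main quantified transcripts in GENCODE M21. Vim-201 starts at 13573952, upstream of the window, and Vim-206 at 13574281, inside it.

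Vim: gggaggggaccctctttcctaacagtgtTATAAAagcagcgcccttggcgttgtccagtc
Prph: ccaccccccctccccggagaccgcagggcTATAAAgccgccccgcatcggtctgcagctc

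The match begins 32 bases before the start in Vim and 31 bases before it in Prph. RefSeq promoters were found for 6 of the 10 genes, with 8 starts, and these 2 held the motif. Searched on both strands, TATAAA was in 3.92% of 32851 promoter windows of the same length. The windows of Nes, Ina, Lmna and Lmnb2 did not hold these letters. The match is a description of sequence, and its use in this tissue was not measured.

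The lamins were led by the B-type genes. Lmnb1, which encodes lamin B1 of the inner nuclear membrane (chr18:56707813-56753424, plus strand), was at 163.6 TPM in replicate 1 and 161.5 in replicate 2. That is a mean of 162.6 ± 1.5 TPM (SD, n = 2). Its ratio of replicate 1 over replicate 2 was 1.02, with an adjusted p of 0.284 in the exact binomial test. Its SD, 0.922% of the mean, was the smallest of the 10 genes.

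Lmnb2, which encodes lamin B2 (chr10:80901203-80918245, minus strand), was at 49.7 TPM in replicate 1 and 51.2 in replicate 2. Its ratio was 0.998, with an adjusted p of 0.994 in the exact binomial test and a 95% interval from 0.951 to 1.05. There were 3.29 Lmnb1 transcripts for each Lmnb2 transcript in replicate 1 and 3.16 in replicate 2.

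Lmnb1-201 held 95.9% of Lmnb1 TPM in replicate 1 and 97.2% in replicate 2. Lmnb2 was divided between 2 coding forms, Lmnb2-201 with 66.6% in replicate 1 and 56.7% in replicate 2, and Lmnb2-204 with 33.1% in replicate 1 and 42.8% in replicate 2. The intervals of Lmnb2-201 ran from 20.5 to 39.1 TPM in replicate 1 and from 18.7 to 40.2 TPM in replicate 2, so the division between the forms was poorly determined in each library.

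Lmna, the A-type lamin gene (chr3:88480147-88509956, minus strand), was the lowest lamin and the one with an adjusted p under 0.05 between the pools. It was at 28.0 TPM in replicate 1 and 36.4 in replicate 2, from 1159 counts in replicate 1 and 1890 in replicate 2, a mean of 32.2 ± 5.97 TPM (SD, n = 2). The deposited intervals, 25.8 to 29.9 TPM in replicate 1 and 34.3 to 38.4 in replicate 2, did not overlap, and replicate 1 was the lower one. Its ratio of replicate 1 over replicate 2 was 0.792, with an adjusted p of 9.20e-09 in the exact binomial test and an unadjusted edgeR p of 0.0926.

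Lmna made up 11.6% of lamin TPM in replicate 1 and 14.6% in replicate 2. Lmnb1 made up 67.8% and Lmnb2 20.6% in replicate 1, and 64.8% and 20.5% in replicate 2. On the log2(TPM + 1) scale the A-type gene lay below the mean of the B-type genes, at -1.66 in replicate 1 and -1.30 in replicate 2. The B-type sum was nearly equal in the pools, at 213.3 TPM in replicate 1 and 212.7 in replicate 2. There were 5.85 Lmnb1 transcripts for each Lmna transcript in replicate 1 and 4.44 in replicate 2.

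The Lmna gene makes lamin A and lamin C by ending the transcript in different places. Lamin A runs through 12 exons and 665 codons, and lamin C stops within exon 10 after 574 codons. The 2 reading frames share their first 568 codons, after which lamin A adds 97 codons and lamin C adds 6. The stretches below show that split, because the isoform shares depend on reads beyond it. They are coding sequence of Lmna-201 and Lmna-203 in GENCODE M21, 5′ to 3′ from coding base 1675, with capitals after the shared part.

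Lamin A across the split: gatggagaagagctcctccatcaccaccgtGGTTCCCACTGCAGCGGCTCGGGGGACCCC
Lamin C across the split: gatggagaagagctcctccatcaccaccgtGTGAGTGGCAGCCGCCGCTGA

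Transcripts for lamin A and lamin C were present in similar amounts. Lamin A (Lmna-201) took 43.5% of Lmna TPM in replicate 1, or 12.2 TPM, and 42.0% in replicate 2, or 15.3 TPM. Lamin C (Lmna-203) took 45.7% in replicate 1, or 12.8 TPM, and 51.7% in replicate 2, or 18.8 TPM. By TPM there were 1.05 lamin C transcripts for each lamin A transcript in replicate 1 and 1.23 in replicate 2. The deposited intervals of the 2 forms overlapped within each library, so an excess of either form was not established. Both forms were lower in replicate 1, with intervals that did not overlap between the libraries.

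A further transcript with the lamin C end but another first exon, Lmna-202, was given reads in replicate 1 alone. It took 8.18% of Lmna TPM in replicate 1 and was listed at 0% in replicate 2. The lamin C values and ratios above leave it out. Its intervals overlapped, from 0.193 to 4.94 TPM in replicate 1 and up to 2.75 TPM in replicate 2, so a difference in its level was not established. Its posterior mean shares were 9.03% in replicate 1 and 3.08% in replicate 2. Over all coding Lmna transcripts, lamin A held 44.7% in replicate 1 and 44.6% in replicate 2. By shares of counts, with no length scaling, lamin A held 56.9% in replicate 1 and 55.4% in replicate 2. The lamin A transcript is 3156 nucleotides long and that of lamin C 2021.

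**Figure D3:**
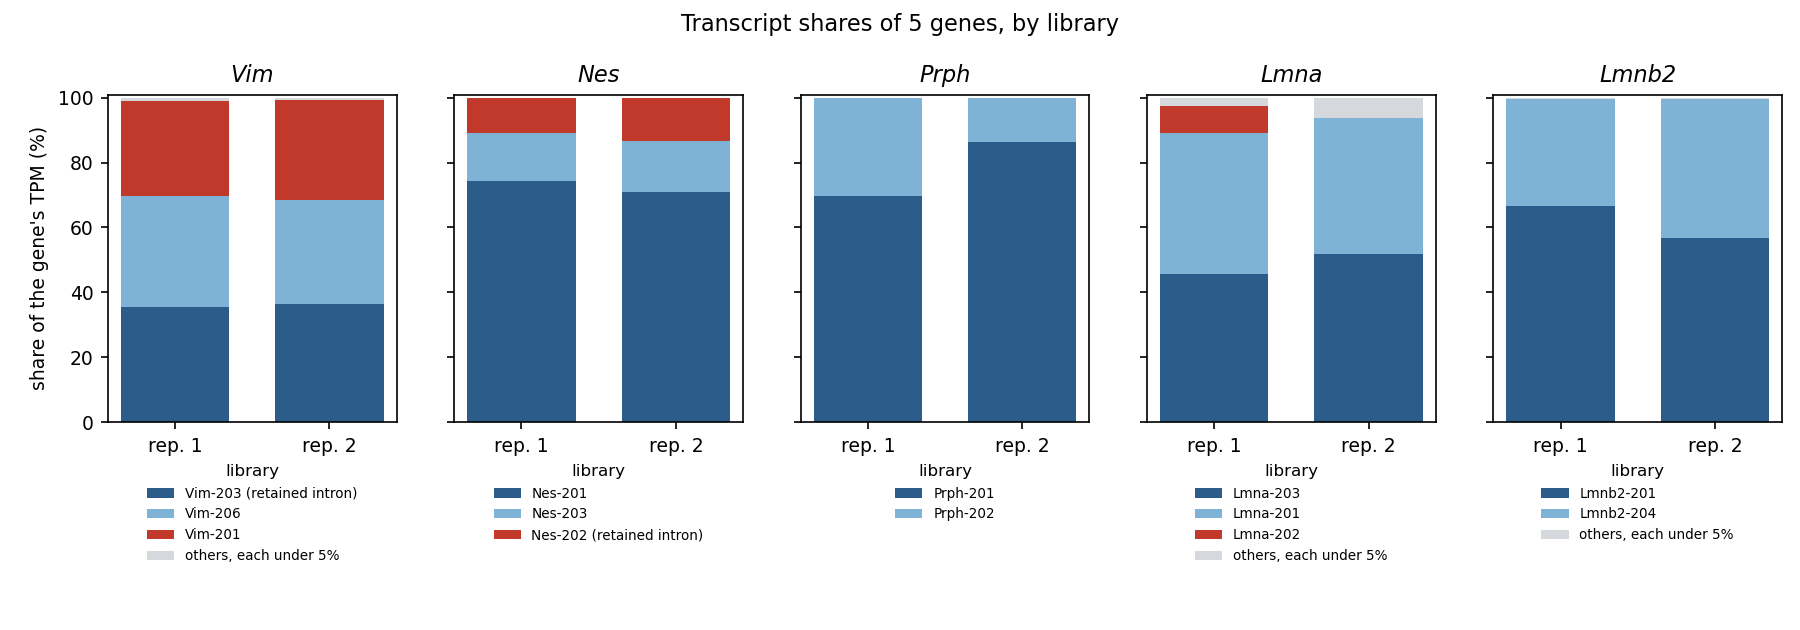
Share of each gene's TPM held by its transcripts, in percent, with replicate 1 left of replicate 2 in each panel. Transcripts with at least 5% in either library are coloured and the others are grey. Lamin C (Lmna-203) and lamin A (Lmna-201) fill most of the Lmna bars in both libraries, and Lmna-202 appears in replicate 1 alone.

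The coding ends of lamin A and lamin B2 carry the signal for a lipid anchor, and lamin C lacks it. Both end with a cysteine codon followed by 3 more codons, the box at which a farnesyl group is added. Farnesylated prelamin A is then cut by the protease Zmpste24, whereas B-type lamins keep the group and stay at the membrane. The ends are shown 5′ to 3′ from GENCODE M21, Lmna-201 on chromosome 3 and Lmnb2-201 on chromosome 10, with the last 4 codons in capitals before the stop codon.

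Lamin A coding end: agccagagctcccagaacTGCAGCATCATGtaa
Lamin B2 coding end: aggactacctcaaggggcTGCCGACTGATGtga

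The fourth codon from the end is TGC in both, and GGC in lamin C. All 7 genes of the lamin processing list were measured, and 0 were called between the pools by the exact binomial rule, beside the 3.55% of all genes. The farnesyltransferase subunits Fnta and Fntb were at 61.1 and 27.9 TPM in replicate 1, and 66.2 and 30.4 TPM in replicate 2. Narf, a prelamin A binding protein, was at 66.4 TPM in replicate 1 and 63.7 in replicate 2. Rce1, the protease that trims the box, was at 35.5 TPM in replicate 1 and 36.8 in replicate 2. None of the 7 had an adjusted p under 0.05, and their median log2 ratio was -0.02.

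Partners of the lamina ranged widely in level. Of 20 genes in this list 19 reached a mean of 1 TPM and 0 were called, beside 3.55% of all genes. Their median log2 ratio was 0.01, and Syne3 was under 1 TPM in both. By the adjusted p alone, 4 of the 19 were higher in replicate 1 and 1 was lower, against 14.1% and 12.3% of all genes. The largest of these ratios was that of Lemd2, an inner nuclear membrane protein, named after its values were seen. It was at 19.4 TPM in replicate 1 and 14.9 in replicate 2. Banf1, a small chromatin bridge, was at 351.7 TPM in replicate 1 and 365.1 in replicate 2. Tmpo, which encodes the LAP2 proteins, was at 256.5 TPM in replicate 1 and 241.3 in replicate 2. Lbr, the lamin B receptor, was at 118.5 TPM in replicate 1 and 120.7 in replicate 2. Syne2, a link from nucleus to cytoskeleton, was at 87.1 TPM in replicate 1 and 95.0 in replicate 2.

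The other filament genes were scarce, and most leaned the same way as Prph and Lmna. Of 18 genes in this list 17 were measured under their names and 11 reached a mean of 1 TPM, of which 9 were lower in replicate 1, with a median log2 ratio of -0.40. The exact binomial rule called 2 of the 11 as lower in replicate 1, where it called 2.14% of all genes in that direction. These were Krt19, a simple epithelial keratin, at 3.05 TPM in replicate 1 against 4.48 TPM in replicate 2, and Bfsp2, a lens filament gene, at 1.94 TPM in replicate 1 against 4.52 TPM in replicate 2. By edgeR neither passed, with adjusted p-values of 0.675 for Krt19 and 0.171 for Bfsp2. The most abundant were Krt10 at 10.2 TPM in replicate 1 and 10.1 in replicate 2, and the epithelial keratins Krt8, Krt15 and Krt5 at 4.32 to 5.39 TPM in replicate 1 and 6.47 to 7.51 TPM in replicate 2. Gfap, the filament of mature astrocytes, was under 1 TPM in both, as were Krt17, Krt4 and Sync, and Krt13 was listed at 0 in both.

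Linkers, kinases and motors that act on filaments gave few calls, and more genes passed by the adjusted p alone. That measure took 2 of 7 linkers, 6 of 18 kinases and turnover genes and 5 of 8 transport genes as higher in replicate 1, against 14.1% of all genes. It took 2 linkers, 2 kinases and 0 transport genes as lower, against 12.3%. Of 10 linker genes 7 were tested and 1 was called, Pkp2, a desmosomal plakophilin, at 3.21 TPM in replicate 1 against 2.08 TPM in replicate 2, where the rule called 1.41% of all genes as higher in replicate 1. Its adjusted p by edgeR was 0.281. The giant linkers Macf1 and Dst were at 61.6 and 31.0 TPM in replicate 1, and 62.3 and 30.4 TPM in replicate 2. Jup, a junction protein, was at 37.2 TPM in replicate 1 and 44.1 in replicate 2. Plec, which ties vimentin to other structures, was at 11.8 TPM in replicate 1 and 15.1 in replicate 2. Dsp and Evpl were under 1 TPM in both.

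Among 18 kinases, phosphatases and turnover genes 1 was called, where the rule called 3.55% of all genes, and 1.41% as higher in replicate 1. It was Cdk5r2, a neuronal activator of Cdk5, at 7.0 TPM in replicate 1 against 4.63 TPM in replicate 2. Its adjusted p by edgeR was 0.209. Cdk1, the mitotic kinase that phosphorylates lamins and vimentin, was at 230.6 TPM in replicate 1 and 243.0 in replicate 2. Trim2, a ubiquitin ligase for the light neurofilament subunit, was at 139.9 TPM in replicate 1 and 149.8 in replicate 2. Gsk3b, a kinase of neurofilament tails, was at 125.4 TPM in replicate 1 and 119.4 in replicate 2.

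Of 8 transport genes 0 were called, beside 3.55% of all genes. Of the 8, 7 were higher in replicate 1, with a median log2 ratio of 0.08 beside 0.00 over all genes tested. Klc1, a kinesin light chain, was at 324.4 TPM in replicate 1 and 315.5 in replicate 2. The kinesin heavy chains Kif5c and Kif5b were at 120.2 and 114.0 TPM in replicate 1, and 108.1 and 118.1 TPM in replicate 2. Dync1h1, the dynein heavy chain, was at 81.9 TPM in replicate 1 and 79.4 in replicate 2.

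Markers of both cell types named for these filaments were present, and those of mesenchyme were lower in replicate 1. All 6 radial glia markers were detected, with a summed level of 1933.4 TPM in replicate 1 and 1929.4 in replicate 2. All 6 young neuron markers were detected, with a sum of 2056.0 TPM in replicate 1 and 1981.6 in replicate 2. The median log2 ratio was -0.02 for radial glia and 0.09 for young neurons. By the adjusted p of the exact binomial test 3 radial glia markers passed as higher in replicate 1 and 3 as lower. For young neurons 4 passed as higher and 0 as lower. Of all genes 14.1% passed as higher and 12.3% as lower. Of both lists 0 were called, beside 3.55% of all genes.

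All 7 mesenchyme markers were lower in replicate 1, 6 of them with an adjusted p below 0.05 by the exact binomial test, where 12.3% of all genes passed in that direction, and 0 were called. Their sum was 1095.5 TPM in replicate 1 and 1548.0 in replicate 2, with a median log2 ratio of -0.43, beside -0.34 for Lmna, -0.44 for Prph and -0.01 for Vim. All 5 macrophage markers and all 5 epidermis markers had a ratio below 1, though Csf1r of macrophages was nearly equal in the pools, at 0.999. By the adjusted p of the exact binomial test 4 macrophage and 2 epidermis markers passed as lower in replicate 1, against 12.3% of all genes. Of both lists 0 were called, beside 3.55% of all genes. The sums of macrophage and epidermis markers were 82.4 and 17.5 TPM in replicate 1, and 107.0 and 24.3 TPM in replicate 2. Red cell markers summed to 9939.8 TPM in replicate 1 and 11450.4 in replicate 2, and endothelial markers to 142.0 TPM in replicate 1 and 164.3 in replicate 2. All 5 red cell markers and 5 of 6 endothelial markers were lower in replicate 1. By the same adjusted p 4 red cell and 3 endothelial markers passed as lower, against 12.3% of all genes. As higher, 1 endothelial marker passed, and 0 of both lists were called.

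Of the rest, 3 of 5 muscle markers and 4 of 5 Schwann cell and neural crest markers were under 1 TPM in both libraries. Their sums were 12.9 and 7.84 TPM in replicate 1, and 13.5 and 10.3 TPM in replicate 2. Mesenchyme, endothelium and macrophages are known to express Vim and Lmna, and the part of these cells in the levels of the 10 genes was not tested.

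**Figure D4:**
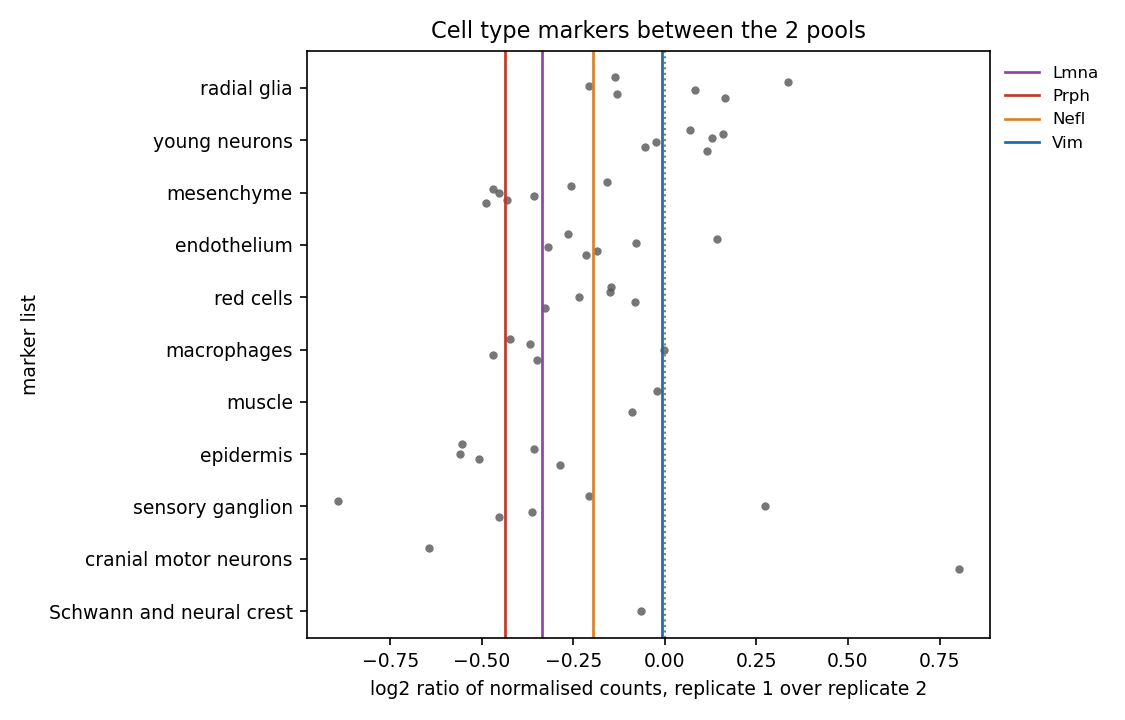
Log2 ratio of TMM-scaled counts, replicate 1 over replicate 2, for each cell type marker at a mean of 1 TPM or more, 1 point per gene and 1 line of points per marker list. Vertical lines mark Lmna, Prph, Nefl and Vim. The 7 mesenchyme points lie left of 0, on both sides of the Lmna line, and the radial glia points lie on both sides of 0.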

How the data were processed

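Total RNA-seq was analysed from 2 libraries of E12.5 mouse midbrain. The deposited expected counts are fractional estimates per gene and transcript, in RSEM-style columns per the file headers. The deposited TPM and FPKM values are scaled for length and library, and the deposited isoform percent is a transcript's share of its gene, per the file headers. The annotation was GENCODE M4, per the readme deposited with each library, and the assembly mm10, per the labels. The aligner and the strand setting were not given in the sources used here.

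The libraries held 29430493 and 37381984 counts, of which 28212923 and 36082643 fell on genes and 4.14% and 3.48% on spike-ins. Spike-in RNAs and 26248 features with short numeric names did not enter any test. GENCODE M21, on the same assembly, gave names, coordinates and transcript types, and 42462 of 43346 genes matched. Promoters came from RefSeq. Eppk1 had no row under that name.

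Counts were rounded to whole numbers and scaled by TMM factors of 0.995 and 1.005 (edgeR 4.0.16, R 4.3.3). The exact binomial test with Benjamini-Hochberg adjustment compares these libraries and not conditions. Log2 ratios had 0.5 counts added. Ratio intervals are 95% exact binomial and hold counting error alone. The authors' TPM intervals add the division of reads among transcripts, and need not contain the TPM itself. The steps were tested on simulated data that held counting error alone, so that check gives no rate of false calls between real pools. Alternatives were DESeq2 1.42.0 size factors, total counts, other thresholds, pseudocounts and units, the edgeR negative binomial test, and leaving out each library.

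The members, gene lists and tests were chosen with earlier results of these data known. All members were named, with each transcript holding at least 5% of its gene. In the other filament lists the 4 genes with the highest mean TPM, called genes and those under 1 TPM were named. Marker lists are given mainly by their sums. A few genes that this rule takes are in the sums and counts and their own values are not reported here.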

Additional observations from a re-analysis of the deposited data

How the results depend on the processing

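No ratio changed direction: 70 of 70 alternatives for the 10 members kept the sign. All of them reuse the same 2 libraries, and the pseudocount changes could hardly move a sign at these counts. For Vim and Lmnb2 the sign carries no direction, as their ratios were 0.995 and 0.998. Their adjusted p-values in the exact binomial test were 0.738 and 0.994. No paired analysis was possible because the 2 libraries form 1 group. Leaving out a library leaves nothing to compare, so member calls and list counts were not run that way. Members called numbered 0, but 2 at a lower fold threshold and 6 with no fold threshold.

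Progenitor minus neuronal filaments (2.92, log2) became 2.76 in CPM without length scaling, 3.20 with a pseudocount of 0.1, 3.25 with none and 2.50 over protein-coding transcripts only and 1.28 without Nefh, the last 2 added after seeing the data. It was 2.86 to 2.98 with either library left out. A-type minus B-type lamins (-1.48) became -1.85 in CPM, and -1.66 to -1.30 with either library left out. Light minus heavy neurofilament (6.35) became 6.72 in CPM, 7.44 with a pseudocount of 0.1 and 7.64 with none, and 6.31 to 6.40 with either library left out. The lamin A share (42.8%) became 41.6% by posterior means, 44.7% over coding transcripts alone and 56.1% by counts, and 42.0% to 43.5% with either library left out. Genes called in the 6 other lists numbered 4 of 70 tested, beside 3.55% of all genes. They numbered 1 at a mean TPM of at least 5 and 6 at 0.1. The shares of all genes at those 2 levels were not computed, so these counts cannot be weighed.

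The order kept 8 of 9 neighbouring pairs in CPM, where Nes (512.4) and also Nefl (282.5) passed Lmnb1 (271.0), 8 over protein-coding transcripts only, where Nefl (138.0 TPM) passed Nes (133.1 TPM), and 8 to 9 with either library left out.

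With 2 libraries of 1 group the spread rests on 2 values, and no alternative adds a condition. Depth limits Nefh (43 and 67 counts) and the transcript shares of Prph (121 and 212 counts) most. Shares of overlapping transcripts rest on the authors' division of reads.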
